A study of Chlorocebus sabaeus with 10 samples.

Results

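The miR-15, miR-16 and miR-195 family was described in livers of female vervet monkeys from the pooled read counts of its mature miRNAs. Members were taken by name from a list drawn up with earlier results of these data known. They were hsa-miR-15a-5p, hsa-miR-15b-5p, hsa-miR-16-5p, hsa-miR-195-5p, hsa-miR-497-5p, hsa-miR-15b-3p and hsa-miR-16-2-3p, which are 7 of the 2588 mature names listed. The names are human, as in the deposited table, and are written without their prefix from here on. Small RNA sequencing was performed on 5 livers of animals fed a high fructose (HFr) diet and 5 livers of animals fed chow. All 10 animals were female and had eaten chow beforehand, and the HFr exposure was short. The design asks for differences in hepatic miRNAs between HFr and chow. The numbered library columns match no label, so no diet could be assigned, and each value below is 1 total over all libraries of both diets, with no spread between animals and no test of diet. On inspection 1 of the numbered libraries was almost empty, so the totals in effect rest on the others.

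miRNAs are cut from hairpin precursors. Each hairpin can release a mature strand from its 5p arm and from its 3p arm, and usually 1 of these is kept while the other is degraded. The seed, a short stretch near the 5′ end of the mature strand, directs pairing with messenger RNAs. The 5p strands of this family share a seed and are known in human and mouse cells for lowering cyclins, the checkpoint kinases CHEK1 and WEE1, and the survival factor BCL2, so that they slow the cell cycle and favour apoptosis. In the human genome the hairpins lie in pairs transcribed together: mir-15a with mir-16-1 in the DLEU2 gene, which is often deleted in chronic lymphocytic leukaemia, mir-15b with mir-16-2 in an intron of SMC4, and mir-195 with mir-497 in a host RNA of its own. mir-16-1 and mir-16-2 release the same mature miR-16-5p. In mouse, miR-15 family members rise in heart after birth as cardiac muscle cells stop dividing, and miR-195 and miR-497 have been linked to slower growth of liver cancer cells.

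The family made up 34329 of 2043164 pooled reads, a share of 1.68% (95% Wilson interval 1.66 to 1.70%). All 7 members had reads, against a background of 26.3% of all names. A level of 1000 reads or more was reached by 4 of the 7 members, against 3.32% of all names. The members had been picked with earlier results of these data known, so these counts describe them and are not evidence about the family. The 3p strands among them had 79 and 37 reads, while the other 3p strands of these hairpins had 13 or fewer. The members were very unequal. miR-16-5p alone held 77.2% of the family's reads, and the other members together came to 7811 reads, or 0.382% of the pool (interval 0.374 to 0.391%). All intervals given here cover counting error alone. Reads are not independent molecules, and the spread between libraries was not computed, since library columns without a sample label entered no computation.

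hsa-miR-16-5p, a regulator of BCL2 and the cyclins that is made in most cell types, had 26518 reads. This was 1.298% of the pool (interval 1.28 to 1.31%) and rank 13 of the 680 names with reads. Its neighbours in the ranking were miR-148a-3p with 27892 reads above it and miR-30d-5p with 26373 reads below it. miR-122-5p, the characteristic miRNA of hepatocytes, had 922528 reads, so that miR-16-5p lay 34.8-fold below it (interval 34.4 to 35.2).

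hsa-miR-195-5p, from the cluster with mir-497 and known to act on cyclins and CHEK1, came next with 4353 reads and a share of 0.213% (interval 0.207 to 0.219%). It ranked 42, between miR-374a-5p (4481 reads) and miR-340-5p (4256 reads). miR-16-5p exceeded miR-195-5p by 6.09-fold (interval 5.90 to 6.29). miR-195-5p in turn exceeded miR-15a-5p by 3.12-fold (interval 2.93 to 3.31) and miR-15b-5p by 3.36-fold (interval 3.16 to 3.58).

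hsa-miR-15a-5p, the partner of miR-16-5p at the DLEU2 locus, had 1397 reads (0.0684%, rank 73), and hsa-miR-15b-5p, the partner at the SMC4 locus, had 1294 reads (0.0633%, rank 77). These were the closest neighbours in the family: the ratio was 1.08, with an interval that began at equality and ended at 1.17. In the ranking of all names, miR-15a-5p stood between miR-99a-5p (1447 reads) and miR-1246 (1395 reads), and miR-15b-5p between miR-532-5p (1362 reads) and miR-148b-3p (1291 reads). hsa-miR-497-5p, which acts on cyclins like its cluster partner miR-195-5p, was the lowest of the 5p strands. It had 651 reads (0.0319%, rank 102), between miR-23b-3p (661 reads) and miR-483-5p (650 reads), and miR-15b-5p exceeded it by 1.99-fold (interval 1.81 to 2.19).

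The remaining members are strands of the 3p arm, which do not carry the family seed. hsa-miR-16-2-3p had 79 reads (exact Poisson interval 62.5 to 98.5, rank 226) and stood between miR-154-3p (80 reads) and miR-422a (76 reads). hsa-miR-15b-3p had 37 reads (interval 26.1 to 51.0, rank 278), the same count as miR-130b-5p and miR-362-3p beside it. miR-16-2-3p exceeded miR-15b-3p by 2.14-fold (interval 1.43 to 3.25). The members thus covered ranks 13 to 278 of the 680 detected names, with the 5p strands in the upper part of the curve and the 3p strands in its middle.

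**Figure D1:**
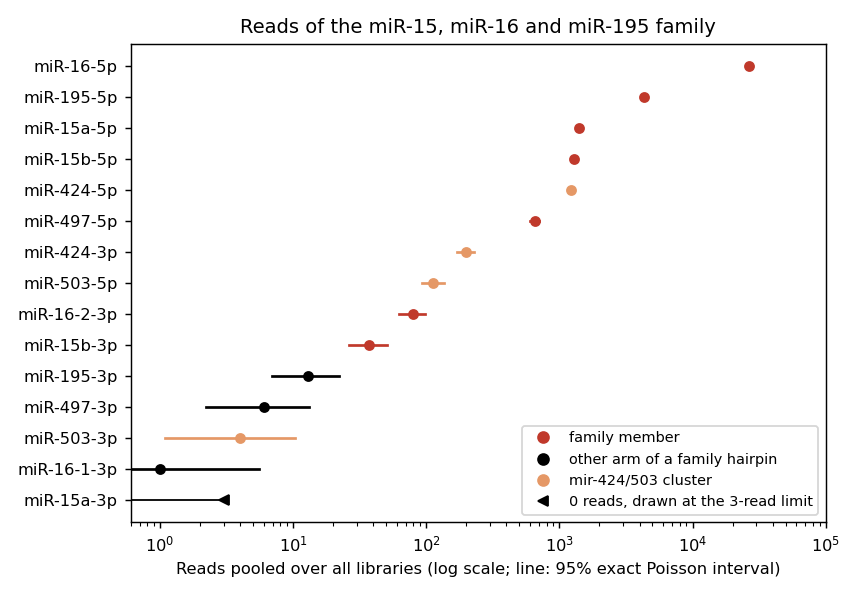
Pooled reads on a log axis for the 7 family members, the other arms of their hairpins and the mir-424 and mir-503 cluster, 1 line per name, with points for counts and bars for 95% exact Poisson intervals. miR-16-5p stands apart at 26518 reads, miR-15a-5p, miR-15b-5p and miR-424-5p lie close together between 1219 and 1397 reads, and miR-15a-3p at 0 reads is drawn at the limit of 3 reads.

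**Figure D2:**
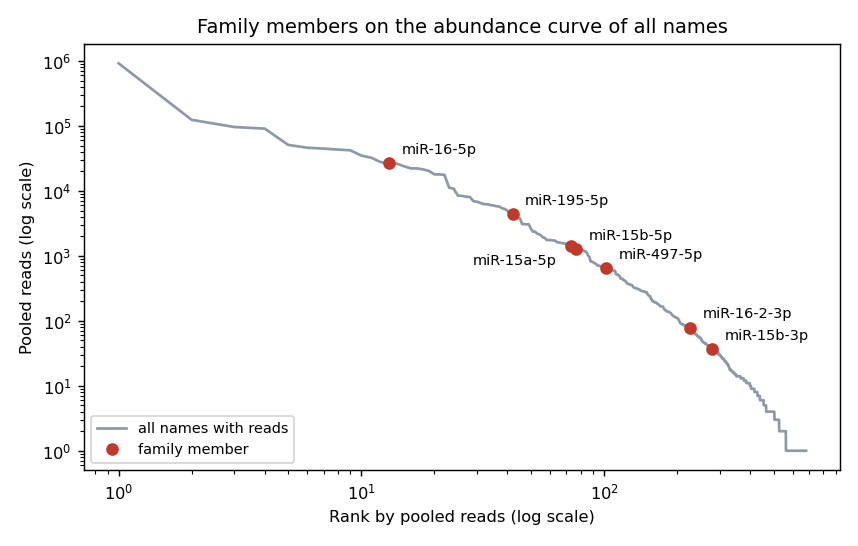
Pooled reads against rank for the 680 names with reads, both on log axes, with the 7 family members as red points on the grey curve. The members span ranks 13 to 278, and miR-15a-5p and miR-15b-5p nearly overlap.

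Cluster partners start out in 1 transcript, so the levels of the partners were compared within each cluster. At the mir-15a/16-1 cluster, the row of miR-16-5p held 26518 reads against 1397 of miR-15a-5p, a ratio of 18.98 (interval 17.99 to 20.05). At the mir-15b/16-2 cluster, the row of miR-16-5p held 26504 reads against 1294 of miR-15b-5p, a ratio of 20.5 (interval 19.4 to 21.7). These ratios are not those of the loci, because the rows of miR-16-5p hold nearly the same count at both hairpins. They differed by 14 reads, or 0.0528%. Among the 28 names with at least 100 reads that appear at several hairpins, 20 had rows within 1% of each other, and the median difference was 0.216%. When the reads of miR-16-5p were divided evenly between its hairpins, the ratios were 9.49 for miR-15a-5p and 10.2 for miR-15b-5p, and which part of the reads came from which hairpin cannot be told from the 5p strand.

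The cluster of mir-195 and mir-497 has no such overlap, since each of its mature strands belongs to 1 hairpin. miR-195-5p exceeded miR-497-5p by 6.69-fold (interval 6.16 to 7.27), although both are excised from neighbouring hairpins. Among 49 neighbouring hairpin pairs of other and of these clusters, each with at least 100 reads on the higher partner, the median ratio was 5.91, with quartiles of 2.34 and 18.9. The ratio of mir-195 and mir-497 was order 24 of the 49, next to the pair of mir-374b and mir-421 (9.06-fold) above it and the pair of mir-181a-1 and mir-181b-1 (5.91-fold) below it. The rows of both mir-16 clusters were order 11 and 12, between the mir-29a/29b-1 pair (26.8-fold) and the mir-27a/24-2 pair (18.9-fold). A ratio of at least 10-fold was found in 42.9% of the pairs. Both mir-16 clusters were among them by their rows, and mir-15a/16-1 was not when miR-16-5p was divided evenly. The pairs overlap in part and some share mature names, so they serve as a description only.

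**Figure D3:**
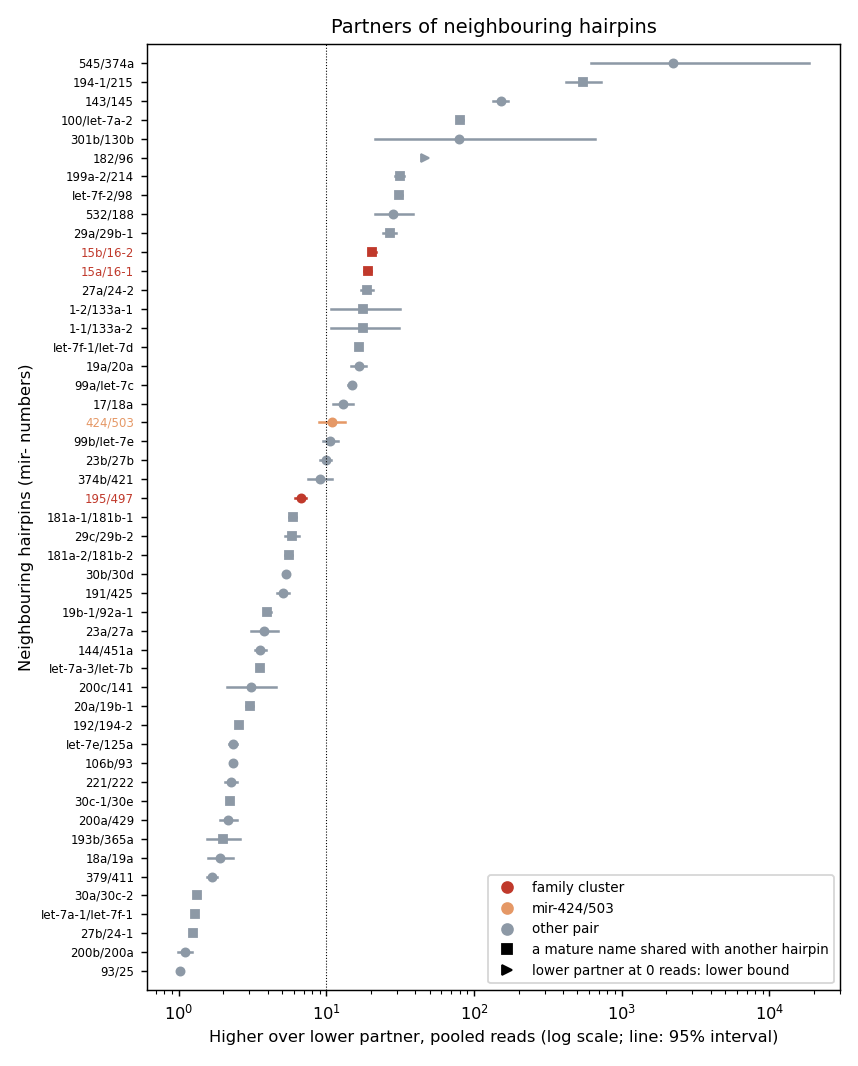
Ratio of the higher to the lower partner in 49 neighbouring hairpin pairs, on a log axis, 1 line per pair with bars for 95% exact binomial intervals, squares where a mature name is shared with another hairpin and a dotted line at 10-fold. The mir-15b/16-2 (20.5) and mir-15a/16-1 (18.98) pairs lie in the upper part and mir-195 and mir-497 (6.69) in the middle.

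The arms of each hairpin were compared next. In all 6 family hairpins the 5p arm was the major one, as it was in 55.9% of the 179 hairpins that have 100 reads or more and a name for each arm. mir-15a gave 1397 reads of its 5p arm and 0 of the other, so the 5p arm was at least 465.7-fold higher when a count of 0 is set at its one-sided limit of 3 reads. The two-sided exact binomial interval of the ratio began lower, at 378.2-fold. The 3p share of mir-15a was 0%, and the wider, two-sided Wilson interval reached 0.274%. From mir-15b came 1294 reads of the 5p arm and 37 of the other, for a 3p share of 2.78% (interval 2.02 to 3.81%). The intervals of these paralogous hairpins did not overlap, while their 5p strands differed by only 1.08-fold.

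The mir-16 hairpins showed the same order. mir-16-2 had 26504 reads on the 5p row and 79 of miR-16-2-3p, a 3p share of 0.297% (interval 0.239 to 0.370%). mir-16-1 had 26518 reads on the 5p row and 1 of miR-16-1-3p, a 3p share of 0.00377% (interval 0.000666 to 0.0214%). Both shares can be too low, since each 5p row can hold reads of the other hairpin. With miR-16-5p divided evenly they were 0.593% for mir-16-2 and 0.00754% for mir-16-1. At the cluster of mir-195 and mir-497 the minor arms were also scarce. mir-195 gave 4353 reads of miR-195-5p and 13 of miR-195-3p (3p share 0.298%, interval 0.174 to 0.509%), and mir-497 gave 651 of miR-497-5p and 6 of miR-497-3p (0.913%, interval 0.419 to 1.98%).

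The median minor arm share over the 179 hairpins was 0.893%, with quartiles of 0.182% and 8.02%. mir-15a and mir-16-1 lay below the lower quartile, mir-16-2 and mir-195 below the median, mir-497 near the median and mir-15b above it. A major arm at least 100-fold over the minor arm was found in 48.0% of hairpins, and in 5 of the 6 family hairpins, with mir-15b as the exception at 35.0-fold (interval 25.2 to 49.9). That of mir-497 was 108.5-fold, and its interval of 49.6 to 296.7 includes lower values. Hairpins with few reads cannot reach a high ratio, and the background share moved with the minimum number of reads.

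**Figure D4:**
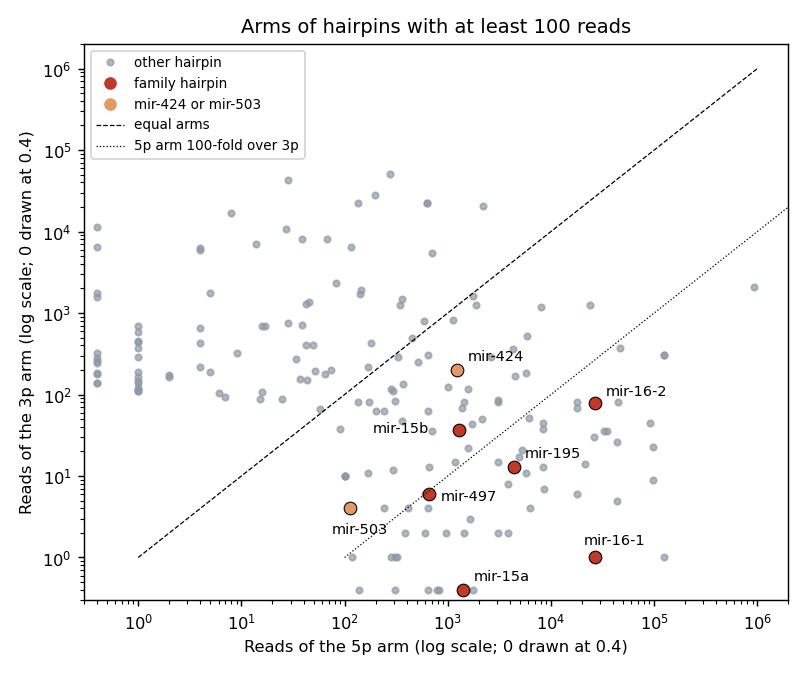
Reads of the 3p arm against reads of the 5p arm for the 179 hairpins with at least 100 reads, on log axes, with a dashed line for equal arms and a dotted line for a 5p arm 100-fold over the 3p arm. The 6 family hairpins (red) all lie below the line of equal arms, and mir-16-1 and mir-16-2 have nearly the same 5p count but 1 and 79 reads on the 3p arm.

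The 3p strands can be told apart between the DLEU2 and SMC4 loci, unlike miR-16-5p. The mir-15b/16-2 cluster had 116 reads on its 3p arms (37 of miR-15b-3p and 79 of miR-16-2-3p), and the mir-15a/16-1 cluster had 1 read (0 of miR-15a-3p and 1 of miR-16-1-3p). The ratio was 116 with a wide interval of 20.4 to 4620.8. On the 5p side the partners of miR-16-5p did not show this difference, with 1294 reads of miR-15b-5p and 1397 of miR-15a-5p. Reads of both arms that only 1 locus can give came to 1410 for mir-15b/16-2 and 1398 for mir-15a/16-1. Their ratio was 1.01 (interval 0.936 to 1.09). These own reads came mostly from the 5p arm, where mir-15b/16-2 was slightly lower, while its 3p reads were higher. The sums leave out miR-16-5p, whose reads cannot be assigned to either locus. The rows bear human names and were taken to be counted against human strands, so a vervet 3p strand that differs from the human one could be missed. That was not tested, because no vervet or human miRNA sequences were used here.

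The imbalance of the 3p strands of the mir-16 hairpins was set beside other hairpins that share a mature strand. Of such pairs, 10 had at least 100 reads of the shared strand and at least 10 reads of a strand that belongs to 1 hairpin only. Ordered by the lower bound of the ratio, miR-16-2-3p over miR-16-1-3p (79.0, interval 13.8 to 3159.3) was order 2 of the 10. It followed the mir-129 hairpins, with 84 reads of miR-129-2-3p and 1 of miR-129-1-3p (84.0-fold, interval 14.7 to 3356.8). It preceded the mir-125b hairpins, with 185 reads of miR-125b-2-3p and 11 of miR-125b-1-3p (16.8-fold, interval 9.18 to 34.3). At the other end, miR-181a-2-3p (45 reads) and miR-181a-3p (38 reads) gave a ratio of 1.18 (interval 0.752 to 1.87). A large difference between the strands of sister hairpins was therefore not confined to mir-16, and the intervals of the first 3 pairs overlap.

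**Figure D5:**
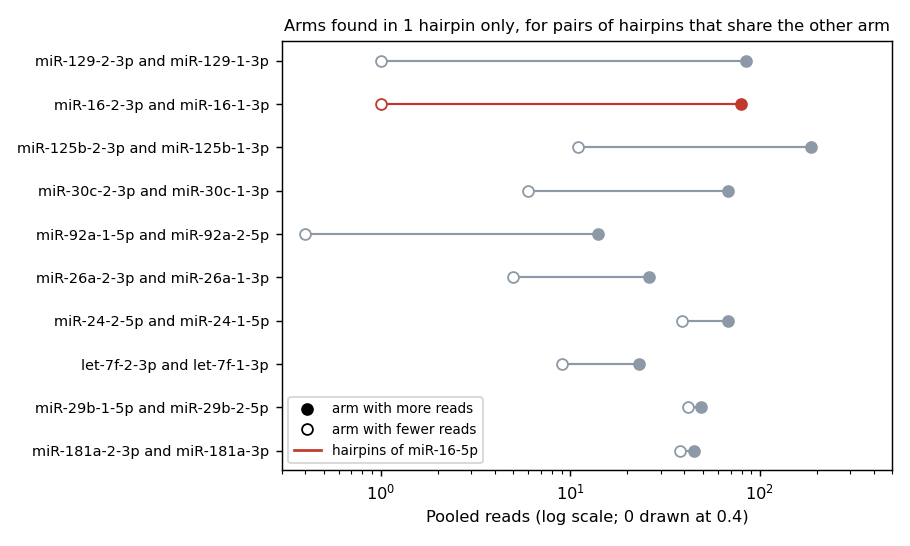
Pooled reads, on a log axis, of the arm that belongs to 1 hairpin only, for 10 pairs of hairpins that share their other mature strand, with filled points for the higher arm and open points for the lower. The mir-16 pair (red) runs between 79 reads of miR-16-2-3p and 1 read of miR-16-1-3p, and only the mir-129 pair has a higher lower bound of the ratio.

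Other miRNAs are known to share the seed or most of it with the family. A list of 12 names was drawn up for this wider group from background knowledge and not checked against sequences. It also took in miR-103b, which is read from the strand opposite miR-103a and does not carry the seed. Of these names, miR-15a-5p, miR-15b-5p, miR-16-5p, miR-195-5p, miR-497-5p, miR-424-5p, miR-503-5p, miR-103a-3p and miR-107 had reads, while miR-646, miR-6838-5p and miR-103b had 0, which allows a share of up to 0.000147% for each at the one-sided limit of 3 reads. Among all names 26.3% had reads. The list was drawn up with earlier results known, so its detection is a description only. The 9 names with reads came to 48409 reads, or 2.37% of the pool (interval 2.35 to 2.39%). miR-16-5p gave 54.8% of these reads. miR-103a-3p, from introns of pantothenate kinase genes and linked to insulin signaling in mouse liver, gave 23.2% with 11249 reads. It lay 2.36-fold below miR-16-5p (interval 2.31 to 2.41). miR-107, its close paralog, had 1616 reads and lay 6.96-fold below miR-103a-3p (interval 6.61 to 7.34). Sequences within this group are alike, so some reads may have been assigned to more than 1 name.

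The mir-424 and mir-503 cluster on the human X chromosome carries the nearest relatives outside the members. miR-424-5p, known to act on cell cycle genes, had 1219 reads (0.0597%, rank 82). It was close to miR-15b-5p, with a ratio of 1.06 for miR-15b-5p over miR-424-5p and an interval of 0.981 to 1.15 that includes equality. miR-503-5p had 112 reads (interval 92.2 to 134.8) and lay 10.9-fold below its partner miR-424-5p (interval 8.96 to 13.3). The 3p arm of mir-424 had 198 reads, a share of 14.0% (interval 12.3 to 15.9%), which was higher than in any of the 6 family hairpins. miR-424-3p thus had 2.51 times as many reads as miR-16-2-3p (interval 1.92 to 3.30). miR-503-3p had 4 reads (3p share 3.45%, interval 1.35 to 8.53%).

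miR-16-5p is made by many cell types, and red blood cells hold much of it, so markers of the cells in the tissue were counted beside it. The defining markers of liver were present: the hepatocyte markers miR-122-5p, miR-194-5p and miR-192-5p held 48.3% of reads. miR-122-5p alone made up 93.5% of the reads of this list. Of the 4 red blood cell markers, miR-486-5p had 8488 reads, miR-451a 2366, miR-144-5p 664 and miR-144-3p 13. miR-16-5p exceeded miR-451a by 11.2-fold (interval 10.7 to 11.7) and miR-486-5p by 3.12-fold (interval 3.05 to 3.20). The endothelial marker miR-126-3p had 20344 reads, and miR-16-5p exceeded it by 1.303-fold (interval 1.28 to 1.33). The leukocyte marker miR-142-3p had 1242 reads, 21.4-fold fewer than miR-16-5p (interval 20.2 to 22.6), and miR-142-5p, miR-223-3p and miR-150-5p had 348 to 694. The leukocyte list left out other miRNAs of these cells, such as miR-146a-5p (1746 reads) and miR-155-5p (824 reads). Of the 4 stellate cell and fibroblast markers, miR-143-3p lay above miR-16-5p with 42313 reads, while miR-145-5p had 280, miR-199a-5p 635 and miR-214-3p 711. The list left out miR-199a-3p, the major arm of the hairpins of miR-199a-5p, which had 22258 reads, the same count as miR-199b-3p. The cells from which the family's reads came were not tested, and in bulk tissue fewer cells of a type and less RNA per cell cannot be told apart.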

How the data were processed

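Small RNA libraries were made from livers of 5 HFr-fed and 5 chow-fed vervets with the Illumina TruSeq small RNA kit, per the labels. The study's methods name miRDeep2 for annotation and quantification, and cutadapt 1.10 and Bowtie are listed in the processing notes of the submitters. The genome build and miRNA release were not given in the sources used here. The authors deposited raw read counts per mature name and precursor in 2948 rows. The pooled total of each row was used. A further 20 columns for numbered libraries match no sample. They were inspected but entered no computation. On inspection 1 of these libraries was almost empty, so the pool in effect rests on the others, and deeper libraries weigh more. Depth per animal is therefore not given.

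Of each name the row with most reads was kept, giving 2043164 reads (2669761 over all rows). Names with equal counts, such as miR-199a-3p and miR-199b-3p with 22258 each, may hold the same reads. The total can then count reads more than once, and shares can be too low by more than their intervals. That was not tested. Shares carry 95% Wilson intervals, counts exact Poisson intervals and ratios exact binomial intervals. A count of 0 was taken as at most 3 reads, a one-sided limit. Intervals were tested only on independent reads simulated from the shares seen here, with scarce names left out. That does not test them on real reads, which are not independent, or on counts near 0. The kit ligates adapters to different miRNAs with unequal efficiency, so levels describe reads and not molecules. Counts were not scaled to length, as mature miRNAs are of similar length.

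The members, the wider seed group, the markers and the neighbouring hairpin pairs were chosen with earlier results of these data known. Named miRNAs were the members, their other arms, the wider group with its arms, the names nearest to each member in reads, the hairpin pairs nearest to the family pairs, and the markers. The pairs of sister hairpins named, the sums over loci, the ratios to markers and miR-199a-3p were chosen after their values were seen. For arms with several names at 1 hairpin the highest was taken. Computations used Python 3.11.15, pandas 2.3.3 and scipy 1.17.1.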

Additional observations from a re-analysis of the deposited data

How the results depend on the processing

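Adding all precursor rows took the family share to 2.28%, against 1.68% with 1 row per name, the share of the wider seed group to 3.22%, against 2.37%, and the ratio of miR-16-5p to 38.0 over miR-15a-5p and 41.0 over miR-15b-5p. These rises arise because miR-16-5p and miR-103a-3p stand on several rows with nearly equal counts. The total rose as well, from 2043164 to 2669761 reads, so the shares of members on 1 row fell. That of miR-195-5p went from 0.213% to 0.163%, and that of miR-15a-5p from 0.0684% to 0.0523%. Leaving miR-122-5p out of the total took the family share to 3.06%. With miR-16-5p divided evenly between its hairpins, its ratio was 9.49 over miR-15a-5p and 10.2 over miR-15b-5p, and the 3p share of mir-16-2 was 0.593%. Hairpins with a 100-fold major arm made up 35.1% with a minimum of 20 reads and 61.1% with a minimum of 1000. Of the 15 names of the family and the mir-424 and mir-503 cluster, 14 had reads, against 26.3% of all names, and 11 had at least 10. The share of all names with at least 10 reads was not computed. These names were chosen with earlier results known, so the counts only describe them. No paired analysis was possible because no library could be matched to an animal. Leaving out single libraries was not run, since columns that match no sample were kept out of every computation, so how far 1 library decides a pooled value is not known. Strands with few reads are limited by depth, as with miR-16-1-3p at 1 read (exact Poisson interval 0.0253 to 5.57).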

Other observations

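The markers of other cell types held smaller shares of the pool than the hepatocyte markers. The 4 red blood cell markers held 0.564% (95% Wilson interval 0.554 to 0.575%), the endothelial pair 1.103% (interval 1.09 to 1.12%), the 4 leukocyte markers 0.132% (interval 0.127 to 0.137%) and the 4 stellate cell and fibroblast markers 2.15% (interval 2.13 to 2.17%). miR-143-3p made up 96.3% of this last share, and the other 3 markers of the list held 0.0796% (interval 0.0758 to 0.0835%). That smaller share depends on the arm listed for miR-199a, which was the 5p arm. miR-199a-3p, the major arm of the same hairpins, had 22258 reads and was not counted. The leukocyte share likewise left out miR-146a-5p (1746 reads) and miR-155-5p (824 reads). The family, at 1.68%, lay above the endothelial markers, below the stellate cell and fibroblast list with miR-143-3p and above that list without it. In the red blood cell list miR-144-3p, with 13 reads, had as many reads as miR-195-3p.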
